A study of Drosophila melanogaster with 2 samples.

Results

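Of the 8714 ChIP-seq peaks of the fly C/EBP protein Slbo on the 6 arms of the fly genome (X, 2L, 2R, 3L, 3R and 4), 409 (4.69%, interval 4.27 to 5.16) had their summit inside an exon and more than 500 bp from every annotated transcription start site. Among the 8714 peaks, all of which had passed the authors' reproducibility threshold, these 409 were chosen by position alone. The summit, the single base the peak caller marked as the top of the peak, had to fall in a coding exon, a 5′ UTR, a 3′ UTR or an exon of a non-coding gene of the Ensembl annotation of the dm6 genome, with transposable elements left out. Coding exons held 216 of these summits, 5′ UTRs 47, 3′ UTRs 73 and non-coding exons 73. Signal values and base composition played no part in the choice among the 8714 peaks. All shares below carry 95% Wilson intervals and their differences 95% Newcombe intervals, and both describe counting error alone, as if no peak depended on its neighbours.

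The assay was chromatin immunoprecipitation with sequencing (ChIP-seq) in whole Drosophila melanogaster embryos, 8 to 24 h old, of a transgenic line, slbo-GFP, in which Slbo is fused to eGFP. Both samples, biological replicates 1 and 2, belonged to 1 group, slbo-GFP embryo ChIP. A GFP antibody was used according to the sample descriptions, whereas the antibody field names slbo, and no control samples were analysed here. Whole embryos mix all cell types, and the labels do not give the promoter that drives the fusion protein or say where it is made, so a peak cannot be assigned to a tissue. The files give peaks and not reads, so the depth of each replicate is unknown.

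C/EBP proteins are basic leucine zipper factors that bind DNA as dimers, and Slbo takes its name, slow border cells, from its part in the migration of the border cells of the fly ovary. Transcription factor peaks are usually found at promoters and at enhancers in introns or between genes. Exons carry a second load of information, since coding exons are read as codons and UTRs hold signals for translation and RNA stability. In the fly, coding exons are richer in G and C than introns, so composition differs between the classes before any protein is considered.

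The exon summits were not alike. Those in coding exons lay in GC-rich sequence, and those in non-coding exons lay in AT-rich sequence much like summits in introns. The bases around the summits of the strongest coding and non-coding members with printed sequence show this. Each run covers 30 bp of the dm6 plus strand (RefSeq copy of the genome), 5′ to 3′, with G and C in capitals.

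klar, coding exon, chr3L:506207-506236: GttGtaGttCGtttGaatGGCCGCCCaGaG

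Pde1c, coding exon, chr2L:11816574-11816603: tCtGCCGGCtCCGCaGCtGGCtCaCtCtGC

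CG31259, coding exon, chr3R:8524477-8524506: tCaCCatCCGtGGaCaaaGaGCtGtGCCtG

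lncRNA:CR46035, non-coding exon, chr3R:17704386-17704415: tCattaaattattGtttCtGatCaaGtCaC

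lncRNA:CR44619, non-coding exon, chrX:12754510-12754539: aGCtaaCtataCCataaaaCaaattaaGaa

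lncRNA:CR44603, non-coding exon, chr2L:1624931-1624960: aaCatatCaaataataGaaaattGtaCtaa

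In these runs G and C made up 53.3% at klar, 70% at Pde1c and 56.7% at CG31259. At the 3 long non-coding RNAs they made up 26.7%, 23.3% and 16.7%.

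The strongest exon peaks lay in non-coding exons and UTRs. The signal is the peak caller's value for a peak, and it was compared in size only within a list. For each member, the signal in a replicate is that of the strongest overlapping peak in that replicate's own ranked list, which runs far below the threshold. The highest series-level signal, 1583, was in the single exon of lncRNA:CR46035 (FBgn0267702; 3R, 17704243 to 17704572), which lies within the gene osa, a subunit of the Brahma chromatin remodelling complex. This peak had a signal of 845.2 in replicate 1 and 752.7 in replicate 2, ranks 74 and 60 of those lists. lncRNA:CR44619 (FBgn0265830; X, 12754380 to 12754679) followed with 1266, with 673.9 in replicate 1 and 597.9 in replicate 2. Both non-coding RNAs thus stood near the top of each replicate's list.

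The strongest 5′ UTR peak was that of ph-p (FBgn0004861; X, 2137700 to 2138077), which encodes a subunit of Polycomb repressive complex 1. Its series-level signal was 1158, with 595.4 in replicate 1 and 583.9 in replicate 2, and it lay 501 bp from a start site of ph-p, at the limit of the rule. Fbl6, an F-box protein, had a 5′ UTR signal of 691.8. The 5′ UTR of eas, the ethanolamine kinase, had a signal of 566.9. Mef2, the transcription factor of muscle differentiation, had 551.6 at series level, with 376.1 in replicate 1 and 171.9 in replicate 2, ranks 403 and 951. The HMG-box repressor gene cic had 475.2 and ush, which encodes a zinc finger partner of GATA factors, had 428.7. Of these 5′ UTR peaks, Mef2 had the widest gap in rank between the replicates.

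In 3′ UTRs the highest signal was that of CG7872 (FBgn0030658; X, 15579650 to 15579927), at 794.2, with 424.2 in replicate 1 and 366.5 in replicate 2. The gene by, which encodes the focal adhesion protein tensin, followed with 505.9. CG10357, CG5895 and CG8206 had 466.9, 457.6 and 439.9. Tctp, which encodes the translationally controlled tumor protein, had 428.7. All of these peaks passed the threshold in both replicates.

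Among coding exons, the homeodomain gene otp (FBgn0015524; 2R, 20884464 to 20884737) stood apart with 977.7, with 581.1 in replicate 1 and 404.2 in replicate 2. Its summit was 4666 bp from the nearest start site, and no other summit of the list lay within 22128 bp. The coding exon of klar, which encodes a KASH-domain protein that positions nuclei, had 471.6, with 278.2 in replicate 1 and 189.9 in replicate 2. Pde1c, a calcium-dependent phosphodiesterase gene, had 291.6 and CG31259 had 232.0. The polarity gene scrib had 200.1, with 137.6 in replicate 1 and 74.34 in replicate 2. Coding exons supplied 2 of the 20 strongest exon summits, although they held 216 of the 409. The other members of that set were 6 in 5′ UTRs, 6 in 3′ UTRs and 6 in non-coding exons, among them lncRNA:CR44603 (738.8), lncRNA:CR44468 (613.3), lncRNA:CR45048 (519.3) and lncRNA:CR44363 (455.2). All 20 overlapped a thresholded peak of both replicates.

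Below these few, coding exon peaks were weak and close together in signal. Their median signal was 69.5, at percentile 13.3 of all 8714 summits, and 146 of the 216 (67.6%) lay between 60 and 80, a band that held 24.4% of the UTR and non-coding exon summits and 19.3% of all summits. The median was 82.3 in 5′ UTRs (percentile 25.8), 108 in 3′ UTRs (percentile 43.5) and 122 in non-coding exons (percentile 50.3). For reference, it was 111 in introns (percentile 44.9), 103 between genes (percentile 40.6) and 121 over all summits. The same ordering of coding exons below introns held in each replicate's own thresholded list. There the coding summits had median percentiles of 10 in replicate 1 and 13.5 in replicate 2, and the intron summits 43.1 and 45.6.

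**Figure D1:**
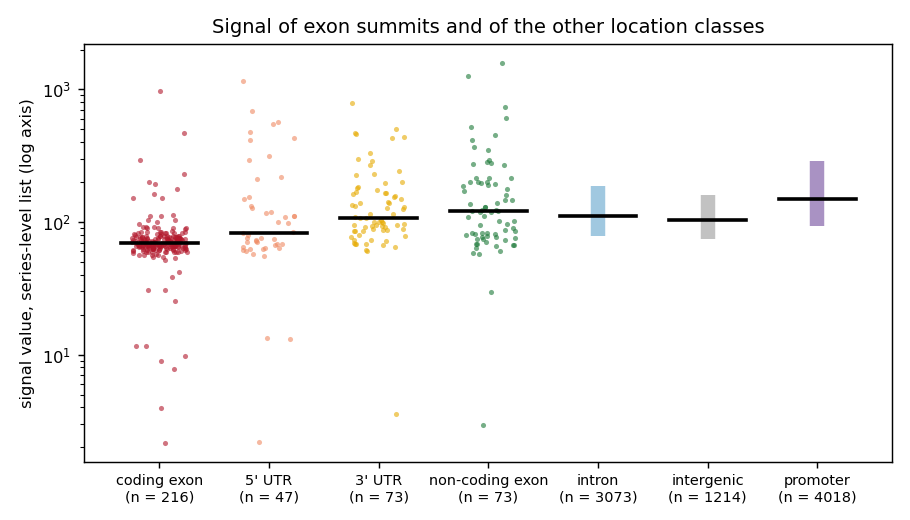
Series-level signal (log axis) of each exon summit (points) in coding exons, 5′ UTRs, 3′ UTRs and non-coding exons, and of the summits in introns, between genes and within 500 bp of start sites (bars from the first to the third quartile), with black lines at the medians. Coding exon points crowd around 69.5, below the intron median of 111, while 5′ UTR, 3′ UTR and non-coding exon points extend far above it.

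Most coding exon peaks did not pass the threshold in either replicate alone. Of the 216 coding exon summits, 15 (6.94%, interval 4.25 to 11.1) overlapped a thresholded peak of both replicates, against 53.7% of all summits and 50.1% of intron summits. The difference from introns was -43.2 percentage points (interval -46.4 to -38.6). Neither replicate's thresholded list had a peak at 157 coding summits (72.7%, interval 66.4 to 78.2), against 17.8% of all summits and 20.7% of intron summits. By replicate, 41 coding summits (19.0%) overlapped a peak of replicate 1 and 33 (15.3%) a peak of replicate 2. The conservative list held 119 of them (55.1%), against 85.6% of all summits. Nearly all coding summits overlapped some peak of the ranked lists: 1 had none in that of replicate 1 and 4 had none in that of replicate 2. Over all 8714 summits, 31 and 94 had none. The ranked lists held 108544 and 115153 peaks on the arms, so an overlap with them says little about presence. The median percentiles of coding summits in those ranked lists were 91.1 and 92.4, against 95.3 and 95.9 for intron summits and 95.9 and 96.2 for all summits. Over the members of every class they were 92.7 and 93.8. Below, a peak found in a replicate is one that overlaps its thresholded list.

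The 193 summits in UTRs and non-coding exons were close to intron summits in this respect. Of them, 89 (46.1%, interval 39.2 to 53.2) overlapped a peak of both replicates, and the difference from introns, -4.03 points, had an interval of -11.1 to 3.23 that includes no difference. Within this set, 38 of 73 non-coding exon summits (52.1%) and 36 of 73 3′ UTR summits (49.3%) were found in both replicates. In 5′ UTRs the count was 15 of 47 (31.9%, interval 20.4 to 46.2), which was -18.2 points from introns (interval -29.9 to -3.87).

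**Figure D2:**
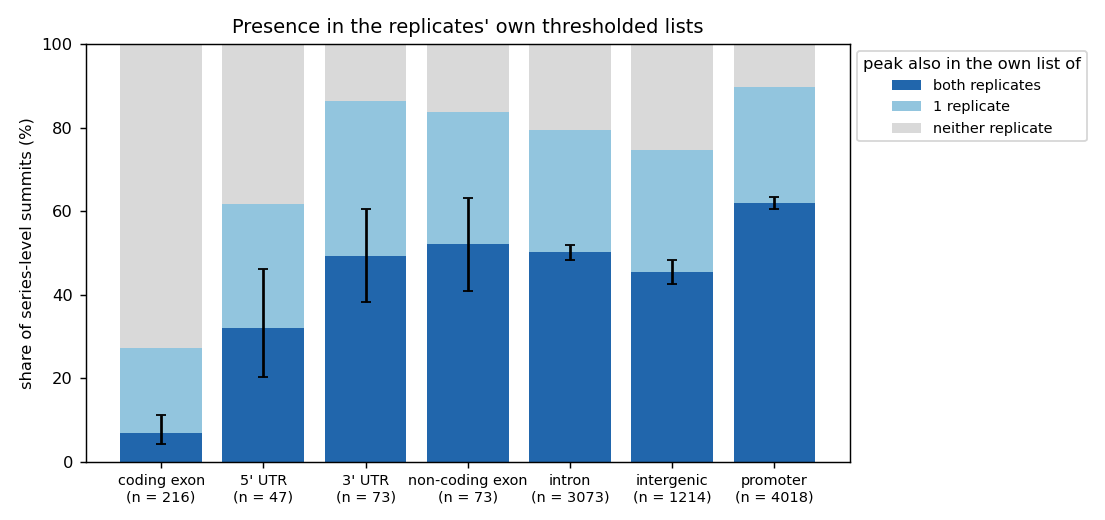
Share of series-level summits of each location class (y axis, %) that overlapped a thresholded peak of both replicates (dark), of 1 replicate (light) or of neither (grey), with 95% Wilson intervals on the dark bars. The coding exon bar has 6.94% in both replicates and 72.7% in neither, whereas the 3′ UTR and non-coding exon bars are close to the intron bar at 49.3%, 52.1% and 50.1%.

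Low signal went with this pattern. The lowest signal quintile of all summits held 158 of the 216 coding summits, and the highest quintile held 3. Within the lowest quintile, 1 of 158 coding summits (0.633%) was found in both replicates, against 27 of 685 intron summits (3.94%). Within the next quintile the shares were 2.33% of 43 coding summits and 13.9% of 691 intron summits. In the middle quintile they were 3 of 5 coding summits (60%) and 60.8% of 656 intron summits. In the 2 highest quintiles all 10 coding summits were found in both, and 96.1% and 100% of the intron summits. Presence in both replicates rose with signal in either class, from near 0 in the lowest quintile to near 100% in the highest. In the 2 lowest quintiles, coding summits were nevertheless found less often than intron summits. The shares found in neither replicate were 84.2% of coding and 67.4% of intron summits in the lowest quintile, and 55.8% and 23.3% in the next. Signals can still differ between the classes within a quintile, and the separate parts of class and signal were not tested. Further down the series-level ranking the coding share kept growing. Coding exons held 2.48% of the thresholded summits, 17.9% of the 8714 peaks next in signal and 22.8% of all 117388 lower-ranked peaks, while intron summits made up 35.3%, 34.5% and 36.4%.

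Each replicate's own list held a smaller share of coding summits. The share was 0.786% (56 of 7124 peaks) in replicate 1 and 0.892% (48 of 5382) in replicate 2, or 0.839% ± 0.0748 (SD, n = 2), against 2.48% in the series-level list. Exon summits of every class made up 2.84% and 2.92% of the replicates' lists. Across the members with a value in both ranked lists, Spearman's rho between the replicates' signals was 0.742 for UTR and non-coding exon summits (n = 190) and 0.791 for intron summits (n = 3043). For coding summits it was -0.073 (n = 211), over the narrow band of signals described above. These points share the same 2 libraries, so no p is given.

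**Figure D3:**
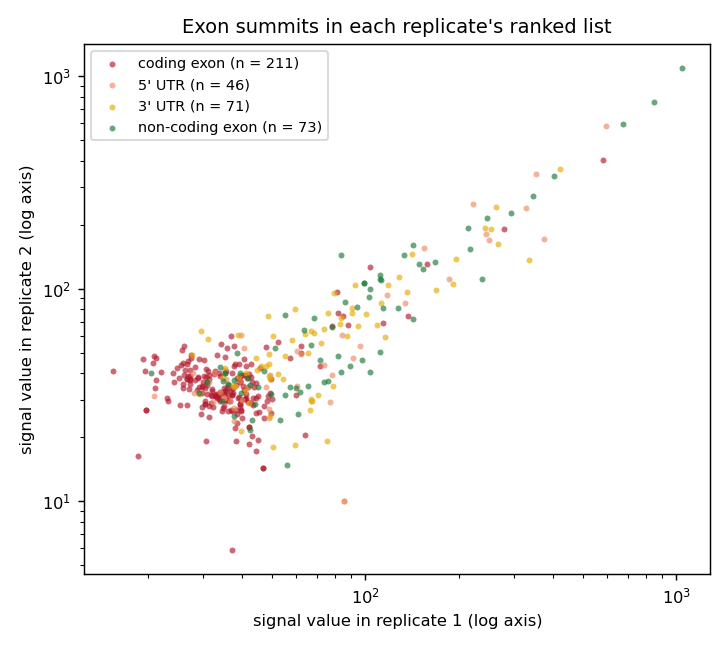
Signal of each exon summit in replicate 1 (x axis) and replicate 2 (y axis), both on log axes, coloured by exon class, for members with an overlapping peak in both ranked lists. Non-coding exon and UTR points run along the diagonal, with lncRNA:CR46035 at 845.2 and 752.7, while coding exon points form a cloud at low signal in both replicates.

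The 15 coding exon peaks found in both replicates were those of otp, klar, Pde1c, CG31259, scrib, l(3)mbn, CG10962, CG11668, Snx27, btsz, CG7465, CG1986, Lmpt, HisRS and bif. Apart from bif, their series-level signals were between 100.7 and 977.7. The peak of bif, an actin-binding protein gene, had 38.71, with 78.20 in replicate 1 and 66.38 in replicate 2, and its summit was 200 bp from a neighbouring summit. Such pairs of close summits were rare: 34 exon summits (8.31%) and 6.78% of all summits had another within 300 bp. They included all 12 exon summits with a signal under 20, and 16 of the 18 members whose signal in a replicate exceeded the series-level one. For these members the replicates' values may be those of the neighbouring peak.

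Base composition separated the exon classes. Within 50 bp of the summit the median GC share was 61.0% at coding exon summits, and the quartiles were 55% and 65%. All coding sequence more than 500 bp from start sites had a median of 53.0%, and 179 of the 216 summits (82.9%) exceeded it. The mean of windows 400 to 500 bp away on both sides had a median of 43.5%, and 197 summits (91.2%) were above their own flanks. These flanks often left the exon: coding exons with a summit had a median length of 861 bp, the median distance of the summit to the exon edge was 245 bp, and for 176 of the 409 members of all classes the flank on the side of higher coordinates lay in the same location class. The contrast with flanks therefore partly sets exon against other sequence. Coding summits of the replicates' own lists had medians of 58.0% and 61.5%. Mean GC rose towards the summit, with 61.1% in the 20 bp bin centred 10 bp from it, against 44.5% in the bin 390 bp away.

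Non-coding exon summits went the other way. Their median was 33.0%, against 43.0% for all non-coding exon sequence, and 20 of 73 were above it. Intron summits had 34.0%, against 40% for all intron sequence. Summits in 3′ UTRs had 40%, against 35% for 3′ UTR sequence, and those in 5′ UTRs 44.0%, against 45%. Summits in coding exons and 3′ UTRs were thus richer in G and C than the sequence of their class, and those in non-coding exons and introns poorer.

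**Figure D4:**
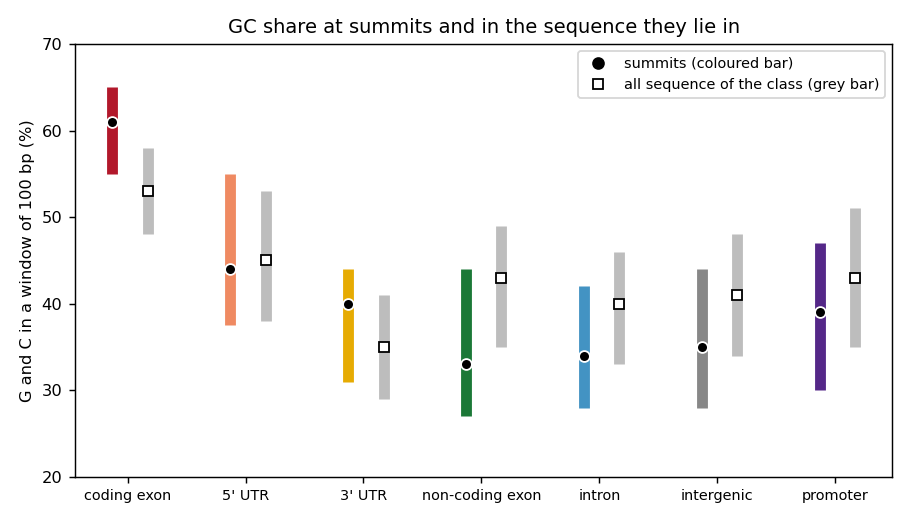
GC share in 100 bp windows (y axis, %) at summits (circles, coloured bars) and over all sequence of the same class (squares, grey bars), with medians and quartiles. Coding exon summits lie at 61.0% above a class median of 53.0%, and non-coding exon summits at 33.0% below a class median of 43.0%.

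**Figure D5:**
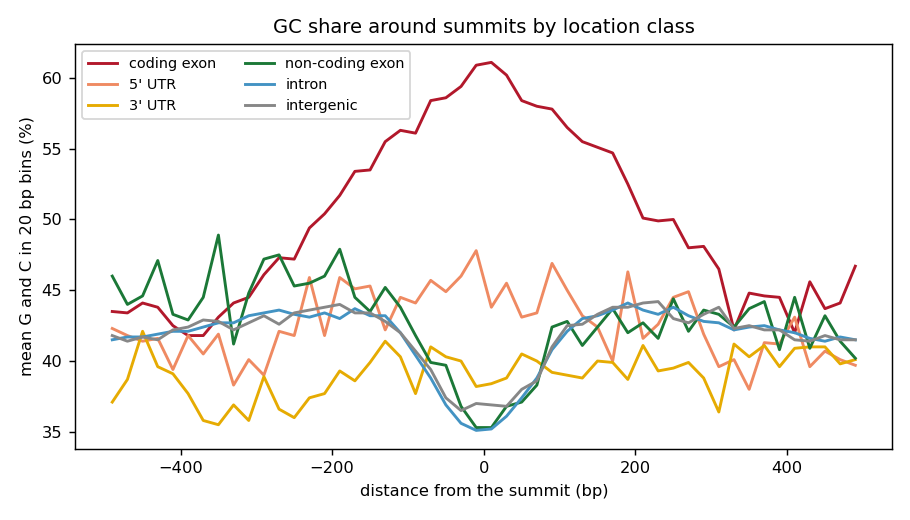
Mean GC share (y axis, %) in 20 bp bins against distance from the summit (x axis, bp) for each location class. The coding exon curve peaks at the summit at 61.1%, and the non-coding exon and intron curves dip there to about the same level, 35.3% and 35.2%.

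Presence in the replicates also differed with the GC share in the other classes. Among summits with a GC share of at least 55%, 10 of 172 coding summits (5.81%, interval 3.19 to 10.4) were found in both replicates, as were 3 of 24 UTR and non-coding exon summits (12.5%) and 36 of 192 intron summits (18.8%, interval 13.9 to 24.9). Among summits under 35%, the counts were 45 of 73 UTR and non-coding exon summits (61.6%) and 61.3% of 1650 intron summits, and no coding summit lay in that range. The difference between coding exons and introns was smaller within the GC-rich band than over all summits. Composition, signal and exon class moved together here, and their separate parts were not tested.

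C/EBP letters were no more frequent at exon summits than beside them. The consensus TTRYRYAA (R is A or G, Y is C or T; 16 8-mers, both strands) was present within 50 bp of 9 of the 409 summits (2.20%), against 23 flanks (5.62%) 400 to 500 bp away on the side of higher coordinates and 16 on the other side. The exact McNemar test against the first flank gave an unadjusted p of 0.02 and a p of 0.20 after Benjamini-Hochberg adjustment over 10 motifs, two-sided, so it did not pass. With windows reaching 100 bp from the summit the test passed, at an adjusted p of 0.019 and a ratio of summits to flanks with a match of 0.435, against 0.391 in the windows used here. Over all 8714 summits the motif was present at 5.34%, and at intron summits at 6.80%. In coding exons it was at 3 of 216 summits (1.39%, interval 0.473 to 4.0), while 1.41% of 184088 windows of the same width spread over coding sequence held it. With a GC share of at least 55%, it was at 1 of 172 coding summits (0.581%) and in 0.558% of 79396 coding windows. The median GC share was 54.0% at the 409 summits and 42.5% in their flanks on both sides. The part of base composition in the contrast with flanks was not tested. In the 176 members whose flank fell in the same location class, a comparison chosen after the values were seen, the ratio of summits to flanks with a match was 0.667, with an adjusted p of 1.0.

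Matches of the consensus are shown for the strongest members with printed sequence, with the 8 matching bases in capitals, on the dm6 plus strand. They lie in a coding exon of CG10962, in a coding exon of btsz, which encodes a synaptotagmin-like protein of epithelial cells, and in exons of lncRNA:CR44231 and asRNA:CR44018. The last is a non-coding RNA whose nearest start site belongs to the homeodomain gene hth.

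CG10962, chrX:8973388-8973415: attggaaaatTTATGCAAatattattga

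btsz, chr3R:14819881-14819908: atcataaacaTTACACAAtctacccgtt

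lncRNA:CR44231, chr3R:12728431-12728458: ggaaatgtgaTTATATAAttactctttg

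asRNA:CR44018, chr3R:10640532-10640559: aataaaatatTTATACAActgagcgttg

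asRNA:CR44018, chr3R:10641450-10641477: tttattacatTTGCATAActttgcatag

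The CG10962 peak had a signal of 114.0 in replicate 1 and 69.03 in replicate 2, the btsz peak 84.97 and 74.38. The lncRNA:CR44231 peak had 71.59 in replicate 1 and 46.19 in replicate 2, and these 3 passed the threshold in both. The pair of asRNA:CR44018 peaks passed in replicate 1 only, with 61.85 and 60.58 there and 32.65 and 25.66 in replicate 2. A match is a description of letters and not a binding site.

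None of the other 9 motifs differed between summits and flanks at an adjusted p under 0.05 by the exact McNemar test. The looser C/EBP form TTRCNNAA was at 45 summits and 56 flanks, and GAGAG, the core of GAGA factor sites, at 55 and 52. AP-1 (TGANTCA) was at 7 and 8, the E-box CACGTG at 6 and 7, and the Zelda heptamer CAGGTAG at 4 and 1. The cAMP response element was at 1 summit and no flank, and the composite C/EBP-ATF octamer TGATGCAA at 1 summit and 2 flanks. The DRE octamer TATCGATA and the M1BP core GGTCACAC were at none of the 409 summits and at none of their flanks. A count of 0 was taken to allow a share of up to 0.733% (3 of 409), a one-sided bound and not a Wilson interval. Over all 8714 summits, promoters included, the DRE and the M1BP core were at 2.38% and 1.20%. At intron summits they were at 0.195% and 0.293%, both under that bound.

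A CAG repeat was noticed in the coding exon summits after their sequences had been seen, so its counts carry no test. CAGCAGCAG on either strand, which in some reading frames encodes runs of glutamine, was within 50 bp of 19 of 216 coding summits (8.80%, interval 5.70 to 13.3). It was in 3 flanks on each side (1.39%), in 2.76% of windows over coding sequence and at 0.390% of intron summits. Among windows with a GC share of at least 55% it was at 18 of 172 coding summits (10.5%, interval 6.72 to 15.9) and in 4.53% of 79396 coding windows. Matches are shown from how, which encodes an RNA-binding protein of muscle and tendon cells, from beat-IIIb, of the beaten path family, and from the T-box gene H15, with the repeat in capitals on the dm6 plus strand.

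how, chr3R:22043147-22043175: ggtcgcgcaaCAGCAGCAGgctcaagccc

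beat-IIIb, chr2L:16992710-16992738: gctgcagcagCAGCAGCAGcctcgtccag

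H15, chr2L:5415609-5415637: gggaatgtggCAGCAGCAGtggccccaac

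The how peak had signals of 47.86 in replicate 1 and 53.09 in replicate 2, and passed the threshold in replicate 1 only. The beat-IIIb peak had 39.34 and 43.99, and passed in replicate 2 only. The H15 peak, with 27.40 and 47.01, passed in neither.

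The median exon with a summit was 1073 bp long, and 68.9% of the peaks lay wholly inside exon sequence. For 86.8% of the summits, every annotated transcript of the gene that spans the summit has it in an exon. That share includes summits spanned by 1 transcript only, and it was not computed for exons in general. Non-coding members fell in 68 cases in exons of long non-coding RNAs and in 5 cases in antisense RNAs. For 53.4% of them, every transcript with an exon at the summit had a single exon. Per megabase of eligible sequence there were 11.7 summits in coding exons, 45.1 in 5′ UTRs, 12.3 in 3′ UTRs and 68.4 in non-coding exons, against 58.2 in introns and 33.3 between genes. In the lists of replicates 1 and 2 the density was 3.04 and 2.61 in coding exons, 26.8 and 14.4 in 5′ UTRs, 10.8 and 7.93 in 3′ UTRs and 50.6 and 44.1 in non-coding exons, against 44.8 and 35 in introns. Coding exons and 3′ UTRs had close densities in the series-level list, but in each replicate's list coding exons were lower.

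The 409 summits touched 371 genes, 340 of them once, and 313 were protein-coding (2.24% of 13945). The gene with the most was lncRNA:CR43334 (FBgn0286827; 3L, 628435 to 643900), whose exon spans the hairpin of the growth-promoting microRNA bantam (mir-ban; 3L, 642208 to 642288). Its 5 exon summits had signals of 346.3, 273.4, 196.0, 130.9 and 119.9. In replicate 1 they had 236.7, 132.8, 113.8, 54.98 and 83.64, and in replicate 2 they had 111.3, 144.0, 80.69, 74.79 and 40.33. All 5 passed the threshold in both replicates, whose own lists held 6 and 5 exon summits in this gene.

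Other genes had 3 exon summits each. lncRNA:CR44603 had signals of 738.8, 416.6 and 73.81, and the weakest was in neither replicate's list. lncRNA:CR46006 had 145.5, 121.9 and 83.13, and lncRNA:CR44365 had 129.0, 122.5 and 80.83, with all of them found in replicate 1. CG14082 had coding exon signals of 72.28, 70.47 and 7.75, none found in either replicate. Tet, of the TET dioxygenase family, had 56.33, 41.87 and 25.58, and only the first was found in a replicate. Of these genes, the non-coding ones were mostly seen in the replicates and the coding ones mostly not.

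Exon summits were unevenly spread over the gene lists. The share of all protein-coding genes with an exon summit was 2.24%. Every list that held any such gene had a higher share, on counts of 1 to 4 genes, and the other lists held none. Gene length was not allowed for, and the differences were not tested. In the list of sarcomere and giant muscle proteins, 3 of 19 genes had an exon summit, all in coding exons: Obsc, the fly obscurin (90.87), the myosin light chain gene Mlc2 (76.88) and Msp300, a nesprin (75.64). In the list of basement membrane and matrix genes, 4 of 16 had one, also in coding exons: the laminin gene wb (75.72), the collagen-binding protein gene SPARC (72.49), the integrin ligand gene Tig (70.34) and the collagen IV gene vkg (59.25). The Obsc and Msp300 peaks passed in replicate 2 only and the vkg peak in replicate 1 only. The Mlc2, wb, SPARC and Tig peaks passed in neither replicate. In the list of segmentation and Hox factors, 2 of 26 genes had an exon summit, pb with one in a coding exon (73.20) and one in a 5′ UTR (67.72), and Antp with one in a 3′ UTR (67.72) that also overlaps CG46458. None of these was found in a replicate alone. The RNA-binding protein gene pum (96.48, found in replicate 2) was the 1 of 15 in the list of RNA-binding proteins of neurons and the germ line. No exon summit lay in the 22 listed heat shock and chaperone genes or the 15 listed Enhancer of split and Bearded complex genes. None lay in the 21 listed bZIP factor genes or the 20 listed genes of translation elongation and the ribosome. The lists do not hold every gene of their kind. RpS26, a ribosomal protein gene outside the last list, had a 3′ UTR summit (164.3) found in both replicates. At a share of 2.24% over all protein-coding genes, lists of this size can hold none.

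Just inside were ph-p at 501 bp (1158), lncRNA:CR43928 at 502 bp (121.9) and CG14572 at 503 bp (69.44). Just outside were lncRNA:CR43932 at 500 bp (210.1), lncRNA:CR44371 at 498 bp (80.35) and capu, an actin-nucleating formin gene, at 496 bp (65.28). With a limit of 1000 bp, 270 exon summits would be members.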

How the data were processed

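The data were peak lists of 2 biological replicates of 1 group, and no contrast between groups was possible. The authors deposited thresholded and ranked peak lists on dm6, made with the irreproducible discovery rate (IDR), as the descriptions deposited with them state. The sources used here name no aligner or peak caller. The signal is the peak caller's value as deposited and no scaling for depth is stated. The score was set by the authors from the IDR, up to 1000, and its lowest value in the thresholded lists was 830. The summit position is the deposited offset from the peak's start, another value of the deposited lists. The main set was the series-level thresholded list on the 6 arms, with 8714 of its 8786 peaks. Each replicate's own thresholded list had 7124 and 5382 peaks on the arms.

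Gene models were those of Ensembl release 115, and a summit counted as promoter within 500 bp of a start site. Where exons of several kinds overlapped, 5′ UTR came before coding exon, then 3′ UTR and non-coding exon, and introns and intergenic sequence came last. Eligible sequence of a class was sampled for base composition in windows of 100 bp. Overlap with a replicate was counted from 1 bp, and the strongest overlapping peak gave its signal. Sequence came from the RefSeq copy of dm6. Intervals and tests used Python 3.11.15, numpy 2.4.6, pandas 2.3.3, scipy 1.17.1 and statsmodels 0.14.6, with figures from matplotlib 3.10.9. Overlaps and motif counts were tested on simulated data with planted answers, and location classes were checked by brute force at random exon positions.

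Genes were named by rule: the 20 highest signals, the 5 highest of each exon class, genes with at least 3 exon summits, the 5 highest with a C/EBP or DRE match, listed genes with an exon summit (up to 4 for each of 8 lists), and the 3 nearest the distance limit on each side. The 15 coding summits found in both replicates and the CAG examples were named after their values were seen. The members and gene lists were chosen with earlier results of these data known. In the lists, nos, BobB and BobC were not matched by symbol.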

Additional observations from a re-analysis of the deposited data

How the results depend on the processing

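Of 57 alternatives computed, 38 were labelled as keeping the result. Shares and medians had to stay within their interval or spread, and tests on their side of the threshold. Counts only had to stay within a fixed ratio of the main value. The 38 thus include 529 exon summits with a start-site distance of 250 bp and 483 with start sites of protein-coding genes only. The number of exon summits, 409, and its share, 4.69%, were 202 and 2.84% in the own list of replicate 1, and 157 and 2.92% in that of replicate 2. With the 50% of peaks of higher signal the number was 95 and the share 2.18%. With a start-site distance of 250 bp the share was 6.07%, with 1000 bp the number was 270 and the share 3.10%, and with start sites of protein-coding genes only the share was 5.54%. The share found in both replicates, 25.4% of exon summits and 6.94% of coding ones, was 90.5% and 100% within the 50% of peaks of higher signal. In the other alternatives it was 24.4% to 29.5% for exon summits and 5.84% to 8.77% for coding ones. The median percentile of exon summits, 19.9, was 34.7 and 38.2 in the replicates' lists. The median GC share, 54.0%, was 52.5% within 100 bp. The C/EBP ratio of summits to flanks, 0.391, was 0.435 within 100 bp of the summit, where the exact McNemar test passed (adjusted p 0.019). The adjusted p of that test was between 0.15 and 1.0 in the other alternatives that had one. The ratio itself was 0.70 in the own list of replicate 1 and 0.273 in that of replicate 2. Genes with at least 3 exon summits, 6 in the main list, numbered 4 in the list of replicate 1 and 3 in that of replicate 2. Listed genes with an exon summit, 10, numbered 3 in each. The causes were not tested. Leaving out peaks with a signal under 20, and requiring the flank in the same location class, were chosen after seeing the data.

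No paired analysis was possible because both samples belong to 1 group. The lists give no read counts, so whether a peak absent from a replicate's list reflects depth cannot be told, and 2 replicates allow no exact test between them.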

Other observations

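Coding exon summits were unevenly spread over the arms in the series-level list. The X chromosome had 16, or 4.88 per megabase of eligible coding sequence (exact 95% Poisson interval 2.79 to 7.93), while the 4 long autosome arms had 47 on 2L (13.9 per megabase), 40 on 2R (11.3, interval 8.07 to 15.4), 56 on 3L (15.7) and 57 on 3R (13). UTR and non-coding exon summits did not share this pattern, with 26.4 per megabase on X (interval 19.4 to 35.1), against 20.8 on 2L, 26.1 on 2R, 28.4 on 3L and 20.9 on 3R. In the replicates' own lists X was not set apart: its counts were close to that of 2R in replicate 1 and above it in replicate 2. On its 3.28 megabases X had 7 coding summits in replicate 1 and 8 in replicate 2. Arm 2R, with 3.54 megabases, had 8 and 4, and 3L, with 3.57, had 9 and 13. Arm 2L, with 3.38 megabases, had 11 and 10, and 3R, with 4.39, had 21 and 13. Chromosome 4 had no exon summit, on 0.253 megabases of coding sequence. The difference between X and the autosomes was not tested, and the sex of the embryos is not given.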
